A study of Homo sapiens with 10 samples.

Results

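The metallothioneins and zinc transporters were read as the rows of the deposited table whose only gene symbol was a metallothionein (MT1 followed by a letter, MT2A, MT3 or MT4), MTF1, SLC30A or SLC39A. The rule found 44 rows of 40 gene symbols among the 21214 rows that carried a symbol. The 3 rows of SLC39A7 held identical values and were counted once, which left 42 rows. Of these, 17 belonged to 15 metallothionein symbols, 1 to MTF1, 10 to SLC30A genes and 14 to SLC39A genes. The symbols alone chose the rows.

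Cells of THP-1, a human monocytic leukaemia line, were turned into macrophages with PMA, a phorbol ester, for 24 h and then treated for 24 h. A first group received DMSO, the solvent (n = 3, passages 6, 7 and 8), and a second punicalagin, an ellagitannin of pomegranate, at 10 µM by the study's methods (n = 3, the same passages). The other groups received myricetin or quercetin (n = 2 each, passages 7 and 8), and the labels give no dose for either. These are flavonols, and myricetin carries a hydroxyl group on the B ring that quercetin lacks. Replicates 1, 2 and 3 of DMSO and punicalagin are passages 6, 7 and 8, and replicates 1 and 2 of the flavonols are passages 7 and 8. All groups are of the same cell line and share the PMA, and cells of passage 6 entered only the DMSO and punicalagin groups.

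Metallothioneins are small cysteine-rich proteins that bind zinc, copper and cadmium. Most of their genes lie side by side on chromosome 16, and MTF1, a transcription factor that senses free zinc, drives them through short promoter sequences called metal response elements. Most transporters of the SLC30 family (ZnT) carry zinc out of the cytosol, across the plasma membrane or into organelles. Transporters of the SLC39 family (ZIP) carry it into the cytosol. Metallothionein genes are also known to be induced by glucocorticoids and by inflammatory signals.

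Levels are log2 intensities of Affymetrix Human Gene 1.0 ST arrays after RMA, so a difference of 1 is a 2-fold difference, and the level of a row is not set against that of another. The number of arrays limits the precision of every value. Array medians lay between 5.14 and 5.25. Of the 42 rows, 9 lay below the median of every array, namely MT1M, MT1IP, SLC30A2, SLC30A4, SLC30A8, SLC30A10, SLC39A2, SLC39A5 and SLC39A12. Other rows lay below it in part of the arrays. MT2A row 7995783, MT1G, MT1X and MT1H, among others, did so in every punicalagin array. Of 10 macrophage markers with a row, 9 lay above the median of every array, against 0 of 5 for T cells, 0 of 3 for B cells, 0 of 2 for erythroid cells, 0 of 4 for epithelial cells, 1 of 4 for fibroblasts (COL1A1) and 1 of 4 for neutrophils (ELANE). The DMSO array of passage 6 had a mean correlation of 0.969 with the other arrays, against 0.977 to 0.984 for the rest. Metallothionein genes are near-identical in sequence, so probes of a row can also bind RNA of a relative, and how far the rows share signal cannot be told apart here.

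The promoters of the metallothioneins are shown first because they hold what MTF1 is known to bind. RefSeq windows on GRCh38.p14, from 250 bases before to 50 after the annotated start, were given for 27 of the 40 symbols, 5 of them metallothioneins. The core of the metal response element, TGCACNC or TGCGCNC on either strand, was found 8 times in the windows of MT2A and MT1H, 4 times in that of MT1X, and 3 times in those of MT1B and MT4. Over all 35116 windows, 29.6% held at least 1 match, 2.3% held 3 or more, and 0.0199% held 8 or more. Capitals mark the matches in the windows printed here, each written in the direction of its gene. MT2A is shown for the row with the largest difference of all members, MT1X and MT1H for the same gene cluster, SLC30A1 as a zinc exporter with matches, and SLC39A7 as a transporter that rose and has none. SLC39A1 and SLC39A10, which also rose with punicalagin, have 1 match each, in 1 of their 2 windows.

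MT2A (chr16:56608334-56608633, + strand): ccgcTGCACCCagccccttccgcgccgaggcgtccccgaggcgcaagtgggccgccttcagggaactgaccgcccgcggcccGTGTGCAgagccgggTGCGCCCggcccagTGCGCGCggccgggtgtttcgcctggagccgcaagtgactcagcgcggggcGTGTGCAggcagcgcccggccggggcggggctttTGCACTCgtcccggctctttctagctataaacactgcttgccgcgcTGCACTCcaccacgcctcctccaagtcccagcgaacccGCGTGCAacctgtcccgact

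MT1X (chr16:56682220-56682519, + strand): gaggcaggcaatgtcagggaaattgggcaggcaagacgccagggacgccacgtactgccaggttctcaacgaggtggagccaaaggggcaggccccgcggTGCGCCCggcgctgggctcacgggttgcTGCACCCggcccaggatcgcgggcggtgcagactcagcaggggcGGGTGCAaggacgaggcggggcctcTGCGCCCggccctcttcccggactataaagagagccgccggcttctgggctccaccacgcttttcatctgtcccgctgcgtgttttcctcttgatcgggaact

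MT1H (chr16:56669564-56669863, + strand): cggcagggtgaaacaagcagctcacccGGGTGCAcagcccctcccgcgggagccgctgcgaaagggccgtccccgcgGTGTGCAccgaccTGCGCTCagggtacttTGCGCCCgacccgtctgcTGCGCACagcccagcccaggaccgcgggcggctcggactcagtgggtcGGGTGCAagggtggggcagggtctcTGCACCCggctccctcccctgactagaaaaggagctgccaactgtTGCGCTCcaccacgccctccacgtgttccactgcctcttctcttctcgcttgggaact

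SLC30A1 (chr1:211579112-211579411, - strand): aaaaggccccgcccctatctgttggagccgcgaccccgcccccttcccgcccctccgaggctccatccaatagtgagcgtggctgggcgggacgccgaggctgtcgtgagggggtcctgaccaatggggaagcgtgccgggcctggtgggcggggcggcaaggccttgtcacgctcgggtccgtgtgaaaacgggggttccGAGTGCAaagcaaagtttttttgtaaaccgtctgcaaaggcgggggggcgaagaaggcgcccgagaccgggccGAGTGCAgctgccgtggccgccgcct

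SLC39A7 (chr6:33200617-33200916, + strand): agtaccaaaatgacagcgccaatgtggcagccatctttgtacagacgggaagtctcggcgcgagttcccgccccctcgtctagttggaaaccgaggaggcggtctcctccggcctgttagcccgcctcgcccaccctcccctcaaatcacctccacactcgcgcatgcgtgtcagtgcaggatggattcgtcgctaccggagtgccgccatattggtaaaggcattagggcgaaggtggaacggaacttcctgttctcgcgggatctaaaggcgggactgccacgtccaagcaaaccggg

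In the MT2A window the matches begin at distances of -246, -168, -153, -139, -88, -54, -8 and 31 bases from the start, and those of MT1X at -150, -122, -78 and -53. MT1H has matches at -53 and -8 as well. Among the transporters, 6 of 11 SLC30A windows and 7 of 19 SLC39A windows held a match, and the windows of MTF1 and SLC39A7 held none. The half-site of the glucocorticoid receptor, TGTTCT or AGAACA, was found in 0 of 5 metallothionein windows and in 14.8% of all windows. For so few windows 0 is near that share. Variants of the half-site and sites outside the windows were not searched. A match is a run of letters in these windows, and binding was not measured.

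**Figure D1:**
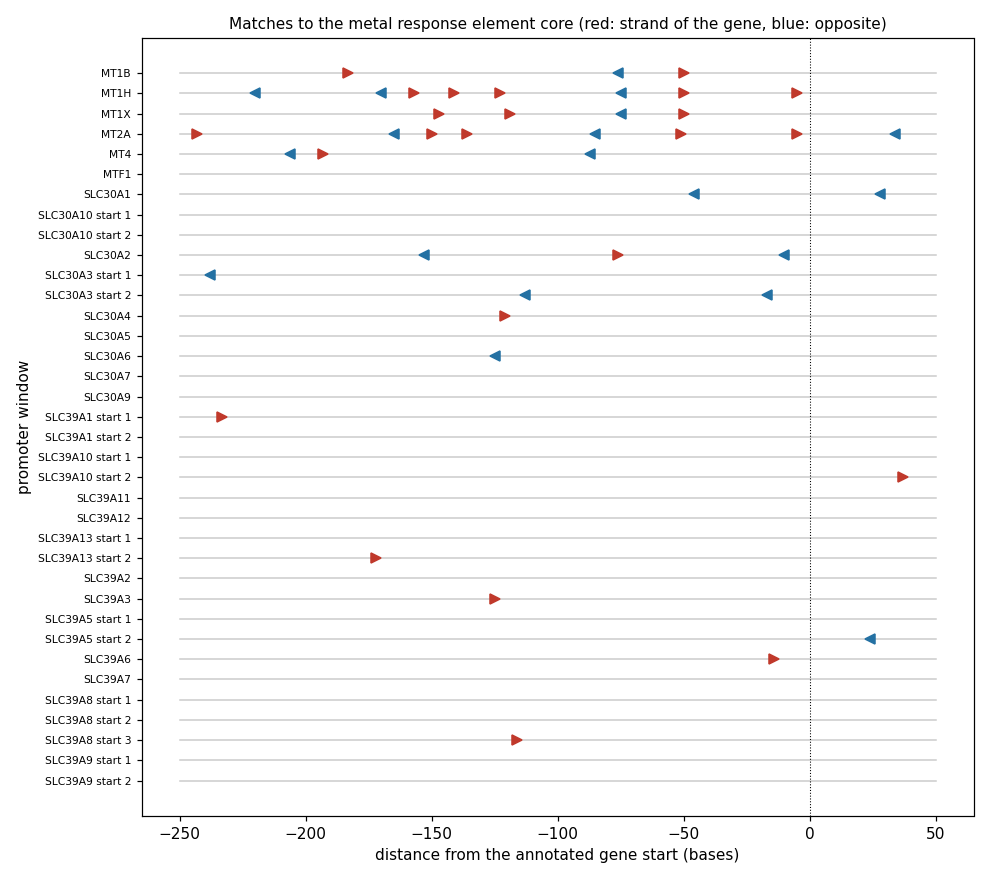
Matches to the metal response element core (triangles, red on the strand of the gene and blue on the opposite strand) along the promoter window of each member, against the distance from the annotated start in bases. Windows of MT2A and MT1H hold 8 matches each, and no transporter window holds more than 3.

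MT2A, a metallothionein expressed in most tissues, was lower with punicalagin in all 3 of its rows. Row 7995783 read 9.06, 8.25 and 7.55 with DMSO and 5.05, 4.43 and 4.93 with punicalagin. The same row read 7.09 and 7.14 with myricetin and 8.15 and 7.95 with quercetin. Every punicalagin array lay below every array of the other groups, the myricetin arrays lay below the DMSO range, as in 10.4% of all rows tested, and the quercetin arrays lay within it. Against DMSO the row fell by 3.48 with punicalagin (SE 0.34, 95% interval -4.25 to -2.70), 11.1-fold lower, with an adjusted p of 0.00216 by limma. The fall passed the test without each array in turn (adjusted p 6.81e-04 to 0.0286), and was 3.09 without the DMSO array of passage 6. Fewer cells of a kind and less RNA per cell cannot be told apart in these bulk samples.

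Rows 8095362 and 8095376 of MT2A gave smaller differences of the same direction. Row 8095362 read 10.14, 9.47 and 9.24 with DMSO, 8.32, 7.55 and 8.07 with punicalagin, 8.97 and 9.05 with myricetin, and 9.75 and 9.34 with quercetin. Row 8095376 read 9.40, 8.63 and 8.48 with DMSO, 7.80, 7.04 and 7.58 with punicalagin, 8.22 and 8.34 with myricetin, and 8.96 and 8.55 with quercetin. In both rows the punicalagin arrays lay below all others and the myricetin arrays lay between punicalagin and DMSO. The fall with punicalagin was 1.63 in row 8095362 (SE 0.27, 3.10-fold, limma adjusted p 0.0181) and 1.36 in row 8095376 (SE 0.28, 2.58-fold, limma adjusted p 0.0405). Both calls were lost on leaving out DMSO replicate 2 or either of punicalagin replicates 1 and 2, and that of row 8095376 also without punicalagin replicate 3, with adjusted p up to 0.103 and 0.188. They were also lost when rows without a symbol were tested too (adjusted p 0.0646 and 0.114). The 4 transcripts annotated to row 7995783 are all among the 6 of the other rows, which share 6 of 6.

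Among the MT1 isoforms, MT1G was the only one to pass the test with punicalagin. It read 5.50, 5.42 and 5.18 with DMSO, 4.39, 4.40 and 4.77 with punicalagin, 4.92 and 5.05 with myricetin, and 5.25 and 5.37 with quercetin. The DMSO and punicalagin arrays did not overlap, and the myricetin arrays lay between them. DMSO replicate 3 and every punicalagin array lay below the median of the array, so the row is dim. MT1G fell by 0.85 with punicalagin (SE 0.17, 1.81-fold, limma adjusted p 0.0339). The call was lost with passage as a block (adjusted p 0.0558), with all rows of the table tested (0.0914) and on leaving out DMSO replicate 2 or either of punicalagin replicates 1 and 2 (adjusted p up to 0.167).

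MT1X, a further MT1 isoform, read 5.66, 4.91 and 4.88 with DMSO, 4.48, 4.04 and 4.23 with punicalagin, 4.63 and 4.86 with myricetin, and 5.20 and 5.07 with quercetin. The DMSO and punicalagin arrays again did not overlap, and the highest array was DMSO of passage 6. DMSO replicates 2 and 3 and every punicalagin array lay below the median of the array. The difference was -0.90 (SE 0.23, 95% interval -1.42 to -0.38) with a limma adjusted p of 0.0959. It passed with passage as a block (adjusted p 0.0314) and with all 10 arrays in the fit (adjusted p 0.0284).

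With punicalagin, 4 of 17 metallothionein rows passed the test as lower and 0 as higher, where 0.198% of all rows tested passed as lower and 2.13% as higher. Of these rows 3 belong to MT2A and share transcripts, so among the 15 metallothionein symbols the calls are of MT2A and MT1G only. The 13 rows that did not pass ranged from -0.90 for MT1X to -0.14 for MT4, an isoform of squamous epithelium. Of these, MT1H came closest to the threshold (-0.67, limma adjusted p 0.0755), and those of MT1E, MT1M, MT1F, MT1B, MT1HL1 and MT3, the isoform of brain, lay between -0.49 and -0.22. All 17 differences were below 0, with a median of -0.46 against -0.053 over all rows tested. In 11 of 17 rows every punicalagin array lay below every DMSO array, which was so in 9.15% of all rows. In 16 of 17 the punicalagin array was the lower in each of the 3 passages, the exception being MT4, against 21.5% of all rows tested. Rows of the pseudogenes MT1DP, MT1IP, MT1JP and MT1P3 differed by -0.46 to -0.31. By limma 0 of these 4 passed (3 at an unadjusted p under 0.05, given without the share of all rows). Binding of MT2A or MT1 RNA to probes of these rows was not tested.

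The DMSO array of passage 6 was the highest DMSO array in 12 of 17 metallothionein rows (70.6%, against 45.1% of all rows), with a median excess of 0.23 over the mean of the other DMSO arrays (0.047 over all rows). Without it the differences with punicalagin were -1.37 and -1.08 for MT2A rows 8095362 and 8095376, -0.79 for MT1G and -0.64 for MT1X. The limma adjusted p were then 0.0155, 0.0361, 0.0499 and 0.0815, so the 3 calls among these rows held.

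**Figure D2:**
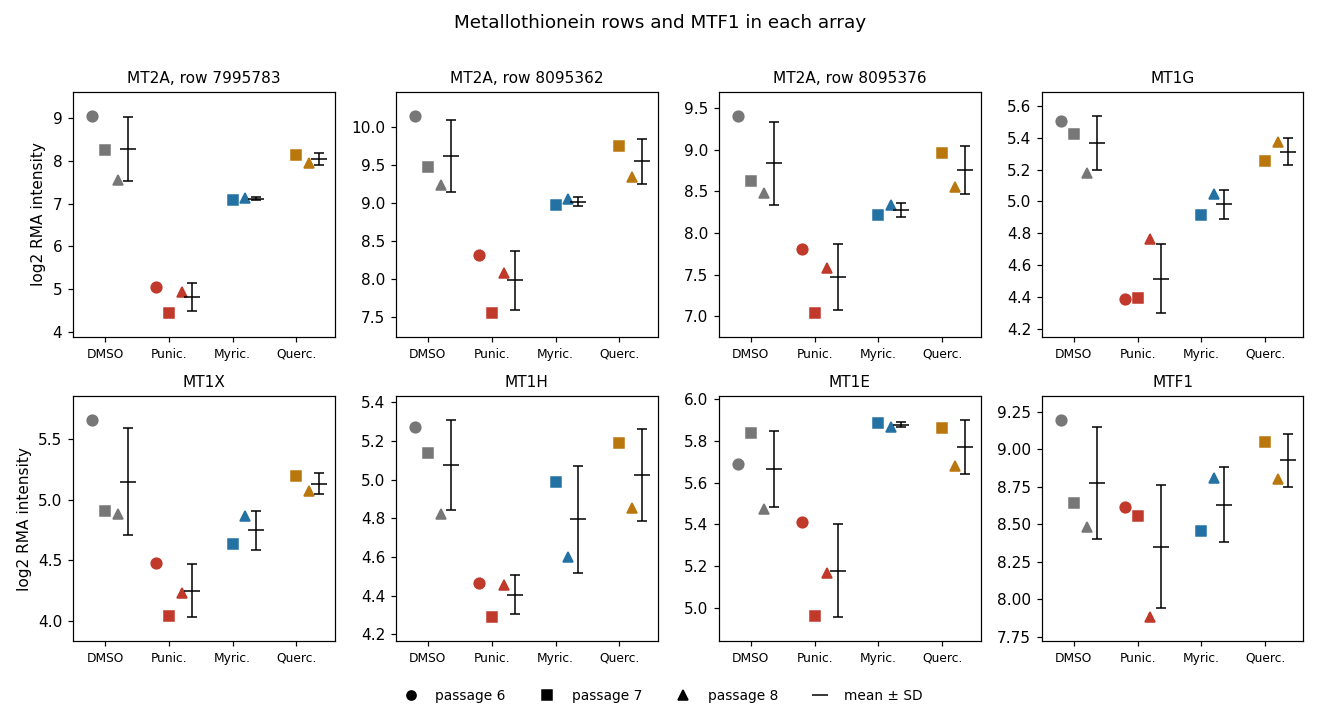
Log2 RMA intensity of 7 metallothionein rows and MTF1 in each of the 10 arrays (symbols give the passage), with the mean ± SD of each group beside the points. In the MT2A row 7995783 the punicalagin arrays lie between 4.43 and 5.05 and the DMSO arrays between 7.55 and 9.06, while the MTF1 groups overlap.

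MTF1, which activates metallothionein genes, showed no call in any of the 6 comparisons. It read 9.20, 8.64 and 8.49 with DMSO, 8.62, 8.56 and 7.88 with punicalagin, 8.45 and 8.81 with myricetin, and 9.05 and 8.80 with quercetin. The groups overlapped, and the lowest array was punicalagin of passage 8, while within each of the 3 passages the punicalagin array was below that of DMSO. The difference with punicalagin was -0.42 (95% interval -0.99 to 0.14, limma adjusted p 0.583), an interval that reaches nearly to a 2-fold fall. It was -0.21 without DMSO replicate 1 and -0.19 without punicalagin replicate 3. In the other comparisons its adjusted p was 0.297 or above.

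The SLC30A family showed no call with punicalagin, with 0 of 10 rows past the limma test. As 2.33% of all rows passed in either direction, 0 of 10 is near that share. At an unadjusted p under 0.05 there were 3 rows. The share of all rows at that threshold is not given here, so this and the other counts at an unadjusted p are not set against it. SLC30A1, the exporter of the plasma membrane, read 6.24, 6.06 and 6.42 with DMSO, 6.46, 6.94 and 6.61 with punicalagin, 6.65 and 6.09 with myricetin, and 6.02 and 6.22 with quercetin. Each punicalagin array lay above each DMSO array by a narrow margin, and the myricetin arrays lay on both sides of it. The difference with punicalagin was 0.43 (95% interval 0.038 to 0.82, limma adjusted p 0.344). SLC30A7, which loads zinc into the early secretory pathway, had the largest difference of its family at 0.52 (SE 0.15, limma adjusted p 0.160), and SLC30A9 the lowest at -0.30. Those of SLC30A5, SLC30A6, SLC30A3, SLC30A2, SLC30A10, SLC30A8 and SLC30A4 lay between -0.21 and 0.50. The median over the family was 0.10.

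The SLC39A family of importers passed as higher with punicalagin in 3 of 14 rows and as lower in 0, against the 2.13% and 0.198% of all rows. SLC39A10 (ZIP10), an importer of the plasma membrane, read 6.17, 6.46 and 6.97 with DMSO, 8.35, 8.72 and 7.98 with punicalagin, 7.25 and 6.91 with myricetin, and 6.47 and 6.91 with quercetin. The punicalagin arrays lay above those of all other groups. SLC39A10 rose by 1.82 with punicalagin (SE 0.25, 3.52-fold, limma adjusted p 0.00757). The call was lost without punicalagin replicate 1 or 2, with an adjusted p up to 0.0577.

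SLC39A1 (ZIP1), a widely expressed importer of the plasma membrane, read 7.02, 6.48 and 6.83 with DMSO, 8.18, 8.51 and 7.83 with punicalagin, 7.54 and 7.32 with myricetin, and 7.65 and 8.04 with quercetin. All arrays of the 3 compounds lay above all DMSO arrays, which of all rows tested was so in 8.39% for punicalagin, 13.3% for myricetin and 14.6% for quercetin. It rose by 1.40 with punicalagin (SE 0.21, 2.63-fold, limma adjusted p 0.0130) and by 1.07 with quercetin (SE 0.22, 2.09-fold, limma adjusted p 0.0202). The punicalagin call was lost on leaving out DMSO replicate 2 or either of punicalagin replicates 1 and 2 (adjusted p up to 0.0773), and the quercetin call without DMSO replicate 2 or either quercetin array (adjusted p up to 0.290). The quercetin call was also lost with only the DMSO and quercetin arrays in the fit (adjusted p 0.0615) and with all rows of the table tested (0.0586).

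SLC39A7 (ZIP7), which releases zinc from the endoplasmic reticulum and Golgi to the cytosol, read 7.53, 7.83 and 7.50 with DMSO, 8.67, 8.78 and 8.86 with punicalagin, 7.98 and 7.90 with myricetin, and 8.37 and 8.76 with quercetin. Again every treated array lay above every DMSO array, with myricetin closest. SLC39A7 rose by 1.15 with punicalagin (SE 0.15, 2.22-fold, limma adjusted p 0.00626), a call kept without each array in turn (adjusted p up to 0.0469). It rose by 0.94 with quercetin (SE 0.16, 1.92-fold, limma adjusted p 0.00671), a call lost without quercetin replicate 2 (adjusted p 0.142) and with only the DMSO and quercetin arrays in the fit (adjusted p 0.0615).

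The 11 SLC39A rows that did not pass with punicalagin ranged from -0.095 for SLC39A5 to 0.89 for SLC39A8 (ZIP8), a carrier of zinc and manganese (SE 0.21, limma adjusted p 0.0704). Between them were SLC39A11, SLC39A6, SLC39A14, SLC39A9 and SLC39A3 at 0.83 to 0.57 and SLC39A13 and SLC39A4 at 0.086 and -0.054. The median over the 14 rows was 0.67, and in 8 of 14 every punicalagin array lay above every DMSO array, which was so in 8.39% of all rows. In 9 of 14 the punicalagin array was the higher in each of the 3 passages, against 14.4% of all rows. SLC39A2, SLC39A5 and SLC39A12, with levels below the array medians, differed by -0.037, -0.095 and 0.055. DMSO had the lowest mean of the 4 groups in 9 SLC39A rows and punicalagin the highest in 8, against 18.8% and 17.6% of all rows.

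**Figure D3:**
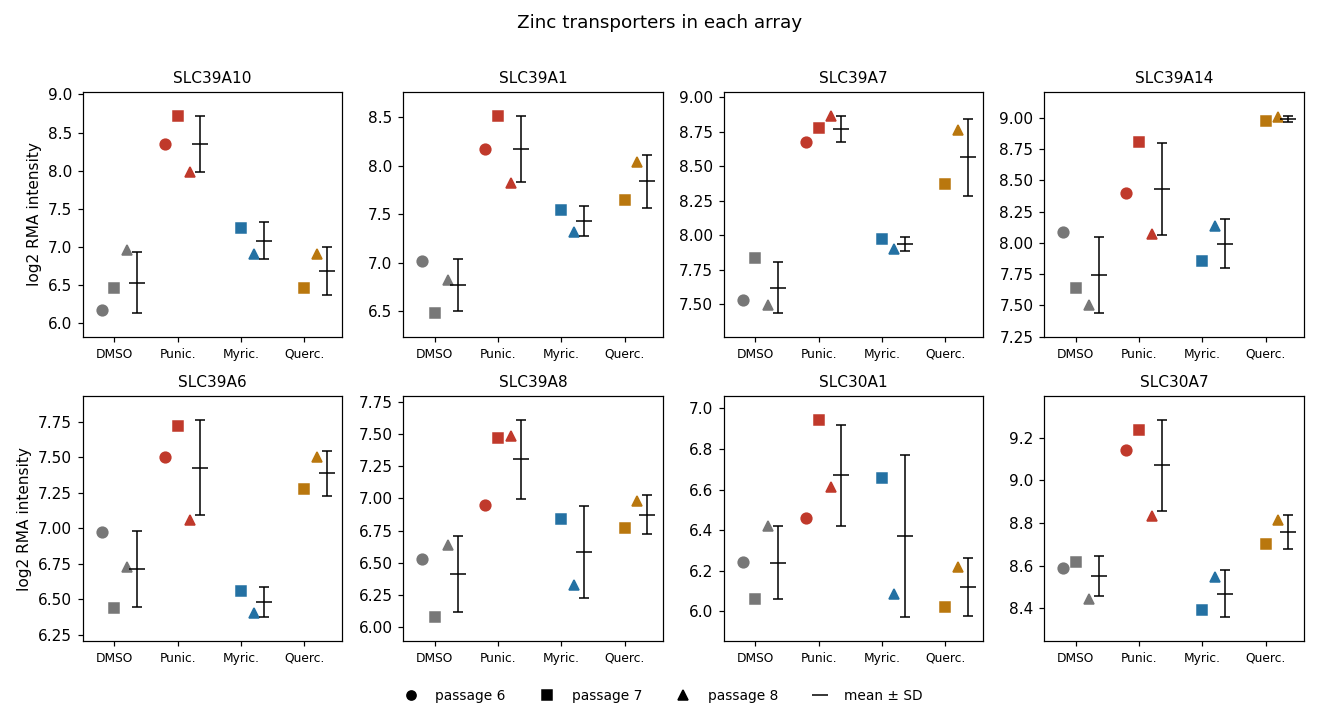
Log2 RMA intensity of 6 SLC39A and 2 SLC30A rows in each of the 10 arrays (symbols give the passage), with the mean ± SD of each group beside the points. Punicalagin arrays of SLC39A10 lie between 7.98 and 8.72 and all other arrays at 7.25 or below, while SLC39A14 is highest with quercetin, at 8.97 and 9.01.

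Quercetin gave 3 calls as higher among the 42 rows, all in SLC39A genes, and 0 as lower, where 2.8% and 1.13% of all rows passed, 3.92% in either direction. Besides SLC39A1 and SLC39A7, the third was SLC39A14 (ZIP14), a carrier of zinc, iron and manganese that responds to inflammation. SLC39A14 read 8.09, 7.64 and 7.50 with DMSO, 8.40, 8.81 and 8.08 with punicalagin, 7.86 and 8.13 with myricetin, and 8.97 and 9.01 with quercetin. The quercetin arrays lay above all others, and those of the other groups overlapped. SLC39A14 rose by 1.25 with quercetin (SE 0.22, 2.38-fold, limma adjusted p 0.00875), a call lost without either quercetin array (adjusted p up to 0.113). With punicalagin it differed by 0.69 (limma adjusted p 0.212).

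For the metallothioneins, 0 of 17 rows passed with quercetin by limma and 0 had an unadjusted p under 0.05, and the methods' t-test with a change over 2-fold called 0 member rows as lower. The differences ranged from -0.32 for MT1F to 0.22 for MT1M, with a median of -0.057. For MT2A they were -0.23 (95% interval -0.98 to 0.51), -0.072 (-0.67 to 0.53) and -0.082 (-0.70 to 0.54) in rows 7995783, 8095362 and 8095376, and for MT1X -0.016 (-0.52 to 0.48). All 4 signs turned without the DMSO array of passage 6, where the differences were 0.15, 0.19, 0.20 and 0.24. SLC30A1 differed by -0.12 (95% interval -0.56 to 0.32), and the widest differences in its family were -0.42 for SLC30A4 and 0.41 for SLC30A3, with limma adjusted p of 0.254 and 0.154.

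Myricetin gave 0 calls among the 42 rows by limma, where 0.438% of all rows passed as higher and 0.0707% as lower. At an unadjusted p under 0.05 there were 4 rows, a count given without the share of all rows. The methods' t-test called 0 with and without adjustment. MT2A row 7995783 differed by -1.17 from DMSO (SE 0.34, 95% interval -1.91 to -0.42, limma adjusted p 0.248). Of the alternatives, only leaving out DMSO replicate 3 made it pass (-1.54, adjusted p 0.0267), and the adjusted p of the others reached 0.915. Rows 8095362 and 8095376 differed by -0.60 and -0.56 (adjusted p 0.579 and 0.631) and MT1X by -0.40 (adjusted p 0.711). Without the DMSO array of passage 6 these 3 differences were -0.34, -0.28 and -0.15, and that of row 7995783 was -0.78. The metallothionein median was -0.16. Among the transporters SLC39A1 had the largest difference at 0.66 (95% interval 0.17 to 1.14, limma adjusted p 0.367), followed by SLC39A10 at 0.55 and SLC39A7 at 0.32.

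**Figure D4:**
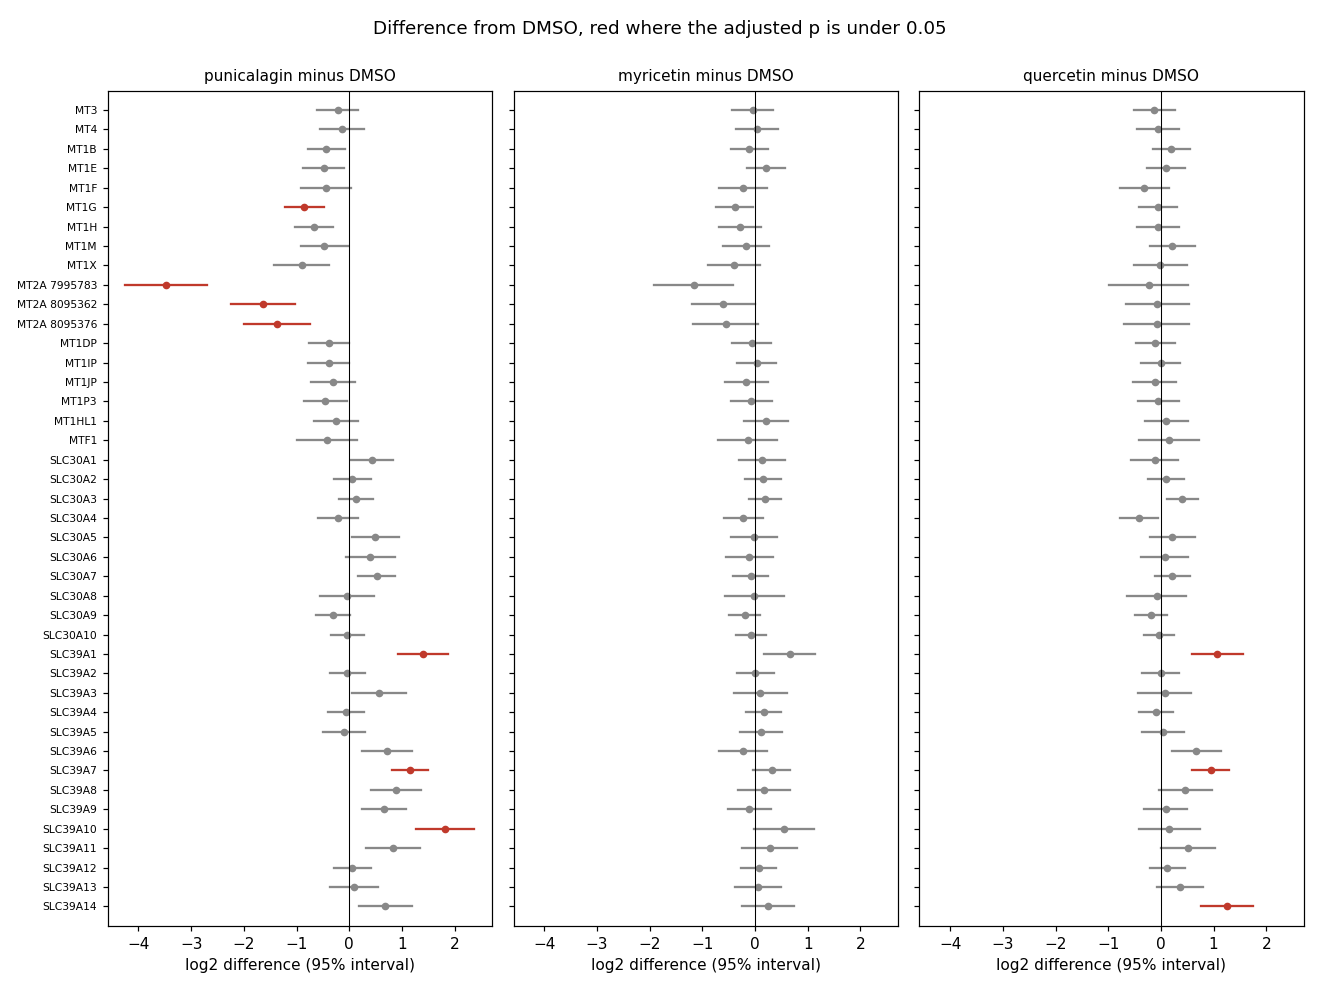
Log2 difference from DMSO of each of the 42 rows with its 95% interval (limma), for punicalagin, myricetin and quercetin, in red where the adjusted p is under 0.05. The 3 MT2A rows and MT1G are red to the left with punicalagin, 3 SLC39A rows are red to the right with punicalagin and 3 with quercetin, and no row is red with myricetin.

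The comparisons with DMSO share its 3 arrays, so the compounds were also compared with each other, in 3 pairs. Punicalagin was lower than quercetin in 4 metallothionein rows and higher in 1 SLC39A row of the 42, where 1.85% and 2.06% of all rows passed as lower and higher, 3.91% in either direction. For punicalagin minus quercetin the difference was -3.24 in MT2A row 7995783 (SE 0.34, limma adjusted p 7.82e-04), -1.56 in row 8095362 (adjusted p 0.0100) and -1.28 in row 8095376 (adjusted p 0.0282). It was -0.80 in MT1G (SE 0.16, adjusted p 0.0190) and 1.66 in SLC39A10 (SE 0.26, adjusted p 0.00639). The next widest among the transporters were SLC39A9 at 0.57 and SLC39A14 at -0.56, neither past the test.

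The call of MT2A row 7995783 against quercetin was kept without each array in turn (adjusted p up to 0.0215). Those of MT1G and of rows 8095362 and 8095376 were lost without either quercetin array, with adjusted p up to 0.185, 0.188 and 0.367. The MT1G call was also lost without punicalagin replicate 1 or 2, that of row 8095376 without punicalagin replicate 2 or with all rows of the table tested (adjusted p 0.0763), and that of SLC39A10 without quercetin replicate 1 (adjusted p 0.139). MT1X differed by -0.88 (adjusted p 0.0573) and passed with passage as a block (-1.07, adjusted p 0.00726), where 8 member rows passed in place of 5.

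Against myricetin, punicalagin was lower in 1 of 42 rows and higher in 0, where 0.00943% of all rows passed as lower and 0.519% as higher. The row was MT2A 7995783, which differed by -2.31 (SE 0.34, 4.96-fold, limma adjusted p 0.0239). Its call was lost without punicalagin replicate 1 or 2 or either myricetin array (adjusted p up to 0.456). It was also lost with all rows of the table tested (adjusted p 0.0926). Rows 8095362 and 8095376 differed by -1.03 (adjusted p 0.144) and -0.80 (adjusted p 0.339). With passage as a block the differences in these MT2A rows were -2.57, -1.25 and -1.03, with adjusted p of 0.00777, 0.0444 and 0.0659, so that 2 rows passed. MT1X differed by -0.50 (adjusted p 0.562) and did not pass with the block (-0.68, adjusted p 0.0989), and SLC30A1 differed by 0.30 (adjusted p 0.752). The transporters closest to passing were SLC39A7 at 0.83 (adjusted p 0.0507), SLC39A10 at 1.27 (adjusted p 0.0624) and SLC39A6 (ZIP6), a plasma membrane relative of SLC39A10, at 0.95 (adjusted p 0.0765). SLC39A10 and SLC39A6 passed without punicalagin replicate 3 (adjusted p 0.0256 and 0.0215).

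Myricetin and quercetin did not differ past the limma test in any of the 42 rows. An unadjusted p under 0.05 was found in 4, given without the share of all rows at that threshold. Of all rows, 0.537% passed as higher and 1.16% as lower with myricetin, 1.7% in either direction. Their doses are not in the labels, so the values stand side by side. SLC39A14 read 7.86 and 8.13 with myricetin against 8.97 and 9.01 with quercetin, a difference of -0.998 (95% interval -1.54 to -0.46, limma adjusted p 0.0695). SLC39A6 read 6.56 and 6.40 against 7.27 and 7.50, a difference of -0.91 (95% interval -1.41 to -0.40, limma adjusted p 0.0766). MT2A row 7995783 differed by -0.93 (95% interval -1.75 to -0.12, limma adjusted p 0.299) and SLC39A7 by -0.63 (95% interval -1.02 to -0.24, limma adjusted p 0.109). In these 4 rows the myricetin arrays lay below the quercetin arrays, which was so in 23.8% of all rows, with 31.8% the other way round. Rows 8095362 and 8095376 of MT2A differed by -0.53 and -0.48 (limma adjusted p 0.521 and 0.603).

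All 4 rows passed when only the arrays of these groups were fitted and when arrays were weighted, with adjusted p from 9.87e-04 to 0.0238. The first of these fits rests on 2 arrays a group. With all 10 arrays and passage as a block none of the 4 passed (limma adjusted p 0.0549 to 0.120). Without 1 array the differences were -1.14 to -0.86 for SLC39A14 and -1.02 to -0.79 for SLC39A6. They were -1.03 to -0.83 for MT2A row 7995783 and -0.83 to -0.43 for SLC39A7. For SLC30A1 and MTF1 the differences between myricetin and quercetin were 0.25 (95% interval -0.23 to 0.74) and -0.30 (95% interval -0.91 to 0.32).

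**Figure D5:**
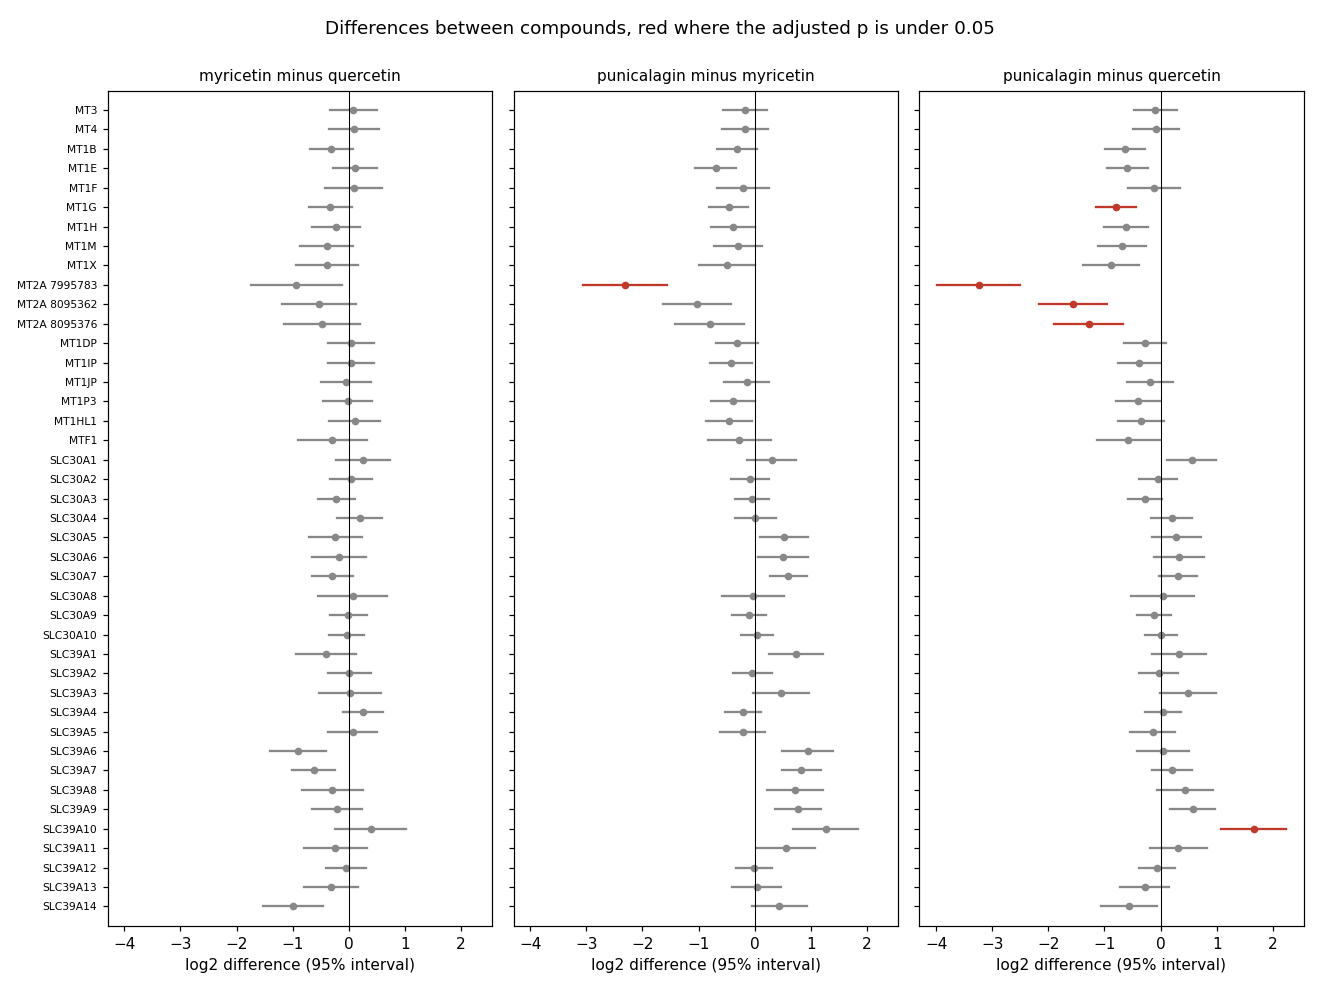
Log2 difference between compounds of each of the 42 rows with its 95% interval (limma), in red where the adjusted p is under 0.05. With punicalagin minus quercetin the 3 MT2A rows and MT1G are red to the left and SLC39A10 to the right, with punicalagin minus myricetin only MT2A row 7995783 is red, and with myricetin minus quercetin no row is.

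Over the 4 groups, punicalagin had the lowest mean in 17 of 17 metallothionein rows, against 33.0% of all rows tested. DMSO had the highest in 11, myricetin in 4 and quercetin in 2, against 28.7%, 28.7% and 25.1% of all rows. In MT2A row 7995783 the means were 4.80 ± 0.33 (SD, n = 3) with punicalagin, 7.12 ± 0.031 (n = 2) with myricetin, 8.05 ± 0.14 (n = 2) with quercetin and 8.28 ± 0.76 (n = 3) with DMSO. Of the neighbours in this order, only punicalagin and myricetin differed past the test. The SD between DMSO arrays in this row compares with a median SD of 0.21 over the metallothionein rows and 0.19 over all rows.

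Genes outside these families that respond to metals, or handle them, were read from further lists. With punicalagin 2.33% of all rows passed in either direction, so 0 calls in a list this short is near that share. Counts at an unadjusted p stand here without the share of all rows at that threshold, and are not read as an excess. Of 11 measured genes of the metal and stress response, 0 passed with punicalagin by limma (4 at an unadjusted p under 0.05), with a median of -0.27, and the largest difference was -0.70 for SRXN1, a sulfiredoxin (adjusted p 0.170). With quercetin 2 of these 11 rose, HMOX1, a haem oxygenase, by 1.07 and SLC7A11, a cystine importer, by 1.67 (limma adjusted p 0.0233 and 0.00800), and 0 fell, against 2.8% and 1.13% of all rows. Of 15 measured genes of copper and other zinc handling, 0 passed with punicalagin by limma (6 at an unadjusted p under 0.05), and SLC31A2, a copper transporter, had the largest difference at 0.64 (adjusted p 0.249). With quercetin COMMD1, a factor of copper homeostasis, fell by 0.61 (limma adjusted p 0.0240), and 0 of the 15 rose.

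Glucocorticoids induce metallothioneins as well. Of 14 measured genes of that response 1 rose and 1 fell with punicalagin by limma, where 2.13% and 0.198% of all rows did. At an unadjusted p under 0.05 there were 6 of the 14. Like the count in the last list below, this stands without the share of all rows. FKBP5, also on this list, is among the genes the study reports as downregulated, with a cut-off on the p-value and on the fold change in its results. Here FKBP5 was not among the genes past the limma test, which is on the adjusted p. The criteria differ, so the missing call does not speak against a fall of FKBP5. CD163, a scavenger receptor of haemoglobin, read 4.18, 4.41 and 4.0 with DMSO and 6.07, 6.43 and 5.73 with punicalagin, a rise of 1.89 (limma adjusted p 0.00270). NFKBIA, an inhibitor of NF-κB, read 10.57, 10.29 and 10.04 with DMSO and 9.14, 9.38 and 9.42 with punicalagin, a fall of 0.98 (limma adjusted p 0.0220). In both genes the groups did not overlap. With quercetin 4 of the 14 rose and 0 fell, where 2.8% and 1.13% of all rows did. Of 7 measured zinc-inducible or zinc-binding regulators, 0 passed with punicalagin by limma (3 at an unadjusted p under 0.05), and PRNP, the prion protein gene, differed most at 0.87 (adjusted p 0.137). With quercetin CA2, a carbonic anhydrase that needs zinc, fell by 0.92 (limma adjusted p 0.0108).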

How the data were processed

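The authors hybridized RNA of 10 samples to Affymetrix Human Gene 1.0 ST arrays and deposited log2 intensities per transcript cluster, here called rows, after RMA, which corrects background, equalises the arrays and summarises probes. Tools listed in the submitters' processing notes are Affymetrix Expression Console and Partek 7.0, with RMA as the method. The sources used here do not state if the 10 arrays were normalized as a set, and no genome build is named for the probes. No normalization was added, and no row was filtered.

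Of 33297 rows, 19460 carried 1 symbol and 1754 several, and these 21214 were tested in R 4.3.3 with limma 3.58.1 (lmFit, eBayes, Benjamini-Hochberg over all rows tested, threshold 0.05). Punicalagin and DMSO were fitted on their 6 arrays, and the other 5 comparisons on all 10 arrays with a shared spread, in which the 2 arrays of a group are assumed to vary like the others. Adjusted p in the text are of limma and hold within a comparison. Members and further lists were chosen with earlier results of these data known. Named are all rows of MT2A, MT1X, SLC30A1 and MTF1, rows past the test, the 3 metallothionein and 3 transporter rows with the widest difference in each comparison, ends of ranges, and from each further list up to 2 genes that passed with punicalagin or, where none did, the widest. MT1E and MT1H as plotted, FKBP5, and the genes of the further lists given for quercetin, were picked after their values were seen.

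Passages are shared between groups in the labels, so arrays of a passage were taken as paired in the counts by passage and in an alternative fit with passage as a block. The main fits held no block. Within passages 6, 7 and 8 the deviations of the DMSO and punicalagin arrays from their group means had correlations of 0.163, -0.189 and 0.229. Between different passages those of the same groups ran from -0.349 to 0.273, a range that holds the values within passages. The pairing thus rests on the labels. The other alternatives were array weights, other sets of rows or arrays, median centring, the methods' t-test and leaving out each array. Promoter windows were those of RefSeq. The fit was checked on simulated data.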

Additional observations from a re-analysis of the deposited data

How the results depend on the processing

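Under the alternatives the count of 7 member rows past the test with punicalagin against DMSO moved to 11 with array weights, 12 with all 10 arrays, 11 with these and passage as a block, 4 when rows without a symbol were added, and 0 with the methods' t-test after adjustment, and to 2 to 7 leaving out 1 array (3 without DMSO replicate 2, 2 without punicalagin replicate 1 or 2). With passage alone as a block it was 8. Shares of all rows past the test are not given per alternative. The counts therefore do not separate a shift in the members from a shift over all rows. For myricetin against DMSO the 0 became 0 to 1 without an array (1 without DMSO replicate 3). For quercetin against DMSO the 3 became 5 with weights, 1 with only these groups, 0 with the adjusted t-test, 5 with the 3 identical SLC39A7 rows counted apart (an alternative chosen after seeing the data), and 0 to 4 without an array (1 and 0 without quercetin replicate 1 and 2). For myricetin against quercetin the 0 became 4 with weights, 2 with passages 7 and 8, 1 with these and passage as a block, and 4 with only these groups.

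For punicalagin against myricetin the 1 became 2 with passage as a block, 8 with weights, 2 with centred arrays, 3 with rows above the median intensity, 0 with all rows, 2 with rows of 1 symbol, 2 with passages 7 and 8, 3 with the unadjusted t-test, 0 with the adjusted, 3 with only these groups, and 0 to 6 without an array (6 without punicalagin replicate 3, 0 without any other). For punicalagin against quercetin the 5 became 8 with passage as a block, 12 with weights, 8 with passages 7 and 8, 0 with the adjusted t-test, and 1 to 6 without an array (3 without punicalagin replicate 2, 1 and 2 without quercetin replicate 1 and 2). These counts too stand without the shares of all rows under each alternative. The cause of the shifts was not tested.

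For single rows, 908 of the recomputed differences kept sign and side of the threshold, 67 lost and 43 gained a call, and 30 turned sign. These counts pool rows called and not called in the main fit. Only a called row can lose a call, so the 908 do not measure how stable the calls are. With quercetin against DMSO, MT2A row 7995783 became 0.020 with passage as a block, 0.0047 with weights and 0.15 with passages 7 and 8, with or without the block. MT2A row 8095362 became 0.14, 0.10 and 0.19, row 8095376 0.14, 0.11 and 0.20, and MT1X 0.17, 0.16 and 0.24. Without quercetin replicate 2 the last 3 were 0.14, 0.12 and 0.045. Without an array each, these 4 ranged from -0.60 to 0.15, -0.28 to 0.19, -0.29 to 0.20 and -0.15 to 0.24. MTF1 with myricetin became 0.029 with the block and 0.067 with passages 7 and 8, with or without the block, and ranged from -0.32 to 0.067 without an array (0.067 without DMSO replicate 1, 0.033 without myricetin replicate 1). SLC30A1 with myricetin ranged from -0.15 to 0.42 against DMSO and -0.032 to 0.54 against quercetin, the lowest without myricetin replicate 1. These single rows are those of MT2A, MT1X, SLC30A1 and MTF1, rows past the main test, and the widest differences of each comparison. Among them, passage as a block changed the calls of MT1G and MT1X with punicalagin against DMSO. It also changed those of MT2A row 8095362 against myricetin and MT1X against quercetin. The counts with this block for punicalagin against DMSO and against quercetin include calls of rows outside these. With 2 or 3 arrays a group, rows below the array medians carry little signal, and a difference there may go unseen.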

Other observations

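A row that carries the symbols NUTF2 and MT1L together was left out of the members because its signal has 2 possible genes. It read 7.10, 6.39 and 6.25 with DMSO, 6.35, 5.80 and 6.08 with punicalagin, 6.52 and 6.10 with myricetin, and 6.40 and 6.64 with quercetin. The difference with punicalagin was -0.50 (SE 0.24, limma adjusted p 0.468).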
